A study of Mus musculus with 15 samples.

Results

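The comparison described here sets wild-type libraries numbered 1 and 2 against wild-type libraries numbered 3 and 4. It was drawn from the sample titles: of 15 libraries in the series, 8 are labelled Trappc1WT, and these hold 4 libraries with numbers 1 and 2 (2 GMP and 2 CMP) and 4 libraries with numbers 3 and 4 (2 GMP and 2 CMP). All genes detected above the filter were compared, 14924 of 23337 symbols, with cell type as a covariate. No library in the comparison is labelled as knockout, so every difference below lies between groups that bear the same genotype label.

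The groups were wild-type GMP 1-2, GMP 3-4, CMP 1-2 and CMP 3-4, each of 2 libraries, all from mouse bone marrow and all listed with no treatment. GMP are granulocyte-monocyte progenitors, sorted here as Lin-Sca1-CD117+ cells that were CD34+ and high for CD16/32. CMP are common myeloid progenitors, sorted with the same markers but low for CD16/32, which is the only difference between the gates. Strain, age and sex are not in the labels, nor is a batch, day or litter for the library number, and the number of mice behind each library is not given, so the p-values measure a spread that may be partly technical. The remaining 7 libraries come from Trappc1 knockout (KO) progenitors, 4 CMP and 3 GMP, and the labels do not say which Cre line or cell type drove the deletion. The split into numbers 1-2 and 3-4 was adopted with the knowledge that the wild-type libraries part that way, so the tests measure how far the sets part and are no independent evidence that they differ.

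Bulk RNA from sorted progenitors carries programs that vary with how far the sorted cells have matured and with signals they met before or during the sort. Type I interferon binds the receptor formed by Ifnar1 and Ifnar2, the kinases Jak1 and Tyk2 then signal to transcription factors that bind the interferon-stimulated response element (ISRE) together with Irf9 to switch on antiviral genes. Granulocyte maturation switches on genes of the primary granules first and those of the secondary and tertiary granules later, while eosinophil granule genes mark a separate branch. Heat shock, unfolded-protein and immediate early genes respond within the time scale of tissue handling.

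Values are CPM (counts scaled to a common library total) after TMM scaling over the 8 libraries, log2 changes are libraries 1-2 minus libraries 3-4, and a value after ± is the standard error from the fit. A gene is called when its p from edgeR's quasi-likelihood test, adjusted by Benjamini-Hochberg over all 14924 genes, lies under 0.05. Trappc1 (chromosome 11, 69323980 to 69325793, plus strand, GRCm38), the gene targeted in the KO, encodes a core subunit of the TRAPP vesicle-tethering complexes and checks the labels. It had 41.1 and 36.6 CPM in GMP 1-2, against 30.4 and 32.7 CPM in GMP 3-4. Trappc1 stood at 18.2 and 26.4 CPM in CMP 1-2, against 18.8 and 24.8 CPM in CMP 3-4. The sets overlapped in CMP, and the mean difference over both cell types was 0.16 on the log2 scale with a two-sided exact permutation p of 0.389 over 36 splits. On the scale of all 15 libraries, the libraries labelled KO had 6.12, 24.0 and 24.96 CPM of Trappc1 in GMP 1, 3 and 4, against 30.8 to 41.3 CPM in wild-type GMP, and 5.53, 3.83, 11.7 and 13.5 CPM in CMP 1 to 4, against 18.6 to 26.5 CPM in wild-type CMP. The libraries labelled KO GMP 3 and KO GMP 4 lay below each wild-type GMP library and well above KO GMP 1, and they take part in each KO GMP value below. Wild-type totals ran from 61.3 to 112.4 M units, or 15.3 to 28.1 M fragments at 4 units each, and both 3-4 sets held the larger totals. Xist stayed at or below 2.14 CPM and the Y-linked Ddx3y at or above 62.7 CPM in all 8 wild-type libraries. On the 15-library scale, KO CMP 1, KO CMP 2 and KO GMP 1 had 109, 204 and 124 CPM of Xist. The same KO libraries also had 63.9, 83.4 and 57.9 CPM of Ddx3y, so they held both Xist and Y-linked RNA. Fcgr3, which encodes the CD16 receptor of the gate, ran from 236 to 309 CPM in GMP and from 36.7 to 116 CPM in CMP.

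The first principal component of the 8 libraries held 55.2% of the variance and separated GMP from CMP, and the second held 16.1% and separated the sets. On the second component the 4 libraries of set 1-2 lay between 28.2 and 46.8 and the 4 libraries of set 3-4 between -43.3 and -25.1. On the first component CMP 1-2 lay at -56.4 and -54.7, nearer to the GMP than CMP 3-4 at -81.9 and -77.2. GMP 1-2 lay at 74.7 and 69.4, further from the CMP than GMP 3-4 at 59.5 and 66.6. Of the total sum of squares of log2 CPM, 54.4% went with cell type, 16.4% with the set, 9.1% with a set effect that differed between the cell types and 20.2% with the spread between libraries of a group.

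**Figure D1:**
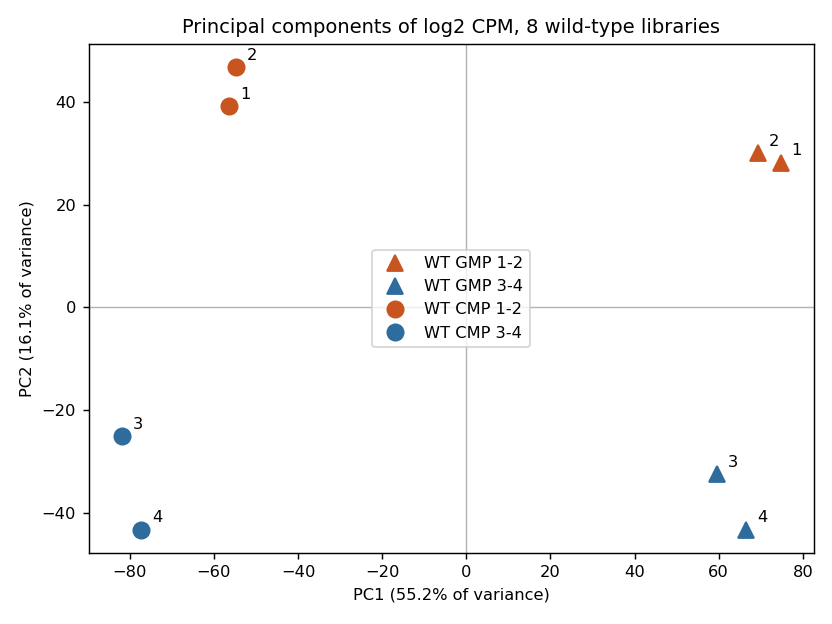
Scores of the 8 wild-type libraries on the first and second principal components of log2 CPM, with the share of variance on each axis; triangles are GMP, circles CMP, orange is set 1-2, blue is set 3-4, and the digit is the library number. All 4 libraries of set 1-2 lie above 0 on the second component and all 4 of set 3-4 below it.

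Over both cell types, 1090 genes were higher in libraries 1-2 (7.3% of those tested) and 1269 were lower (8.5%), together 15.8%. The sets overlapped in neither cell type for 2176 genes higher in libraries 1-2 (14.6%) and 2348 lower (15.7%). The genes named for the largest changes over both, Isg15, Irf7 and Emp1 among them, had to lack overlap, so it is no support for them. At an unadjusted p under 0.05, 33.2% of genes passed over both cell types, 25.2% in GMP, 35.3% in CMP and 18.2% for the difference between them. In GMP alone 428 genes were higher (2.87%) and 708 lower (4.74%), together 7.61%, and in CMP alone 1729 were higher (11.6%) and 1425 lower (9.55%), together 21.1%. The set effect differed between the cell types for 791 genes (5.3%), being higher in GMP than in CMP for 228 (1.53%) and lower for 563 (3.77%). The median log2 change of all genes was 0 in GMP, -0.01 in CMP and 0.001 over both. Leaving out 1 library moved the counts over both cell types by more than 1.5 times in several cases: the higher genes numbered 577 without CMP 1, 380 without CMP 2, 486 without CMP 4, 620 without GMP 1, 632 without GMP 2 and 418 without GMP 4, and the lower genes 535, 706 and 672 without CMP 2, CMP 4 and GMP 4 and 800 without GMP 2. In GMP the higher genes numbered 127, 88, 123 and 82 and the lower genes 306, 262, 318 and 244 without GMP 1, GMP 2, GMP 3 and GMP 4, and 659 were higher without CMP 3. In CMP 865 were higher and 508 lower without CMP 2, and 975 and 669 without CMP 4. The count with a higher set effect in GMP than in CMP was 120 and 104 without CMP 1 and CMP 2, and 98, 83, 90 and 87 without GMP 1, GMP 2, GMP 3 and GMP 4. The count with a lower one was 371 without GMP 1 and 362 without GMP 3. A limma voom fit with the library number as a random block called 1857 genes higher over both cell types and 353 with a higher set effect in GMP, and without the block 2178 and 214.

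Interferon-response genes were lower in libraries 1-2 in both cell types. Of the 51 tested interferon-induced genes, 47 were lower over both cell types, against 8.5% of all genes, and the list's median log2 change was -0.94. Within GMP 38 were lower (4.74% of all genes) with a median of -0.81, or -0.74 with the gene listed at 0 in a set put at the detection floor of 3 fragments, and within CMP 45 were lower (9.55% of all genes) with a median of -0.95. By edgeR, 0 members were higher in either cell type or over both, also at an unadjusted p under 0.05, and by DESeq2 0 were higher. The number of lower members ran from 40 to 50 over 19 other settings and left-out libraries.

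The promoters of 4 of these genes are shown because they carry the ISRE core that the interferon-activated complex binds, searched as a pair of GAAA blocks with any 2 bases between them, on both strands. The stretches of 60 bases come from RefSeq promoters (250 bases before to 50 after the gene start, GRCm38.p6), run 5′ to 3′ along the gene's strand, and lie upstream of the start; capitals mark the matches, which overlap at Isg15. Isg15 is at chr4:156200862-156200921 (minus strand), Ifit1 at chr19:34640760-34640819 (plus), Oas3 at chr5:120777700-120777759 (minus) and Rsad2 at chr12:26456538-26456597 (minus).
Isg15: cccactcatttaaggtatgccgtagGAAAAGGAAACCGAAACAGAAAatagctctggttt
Ifit1: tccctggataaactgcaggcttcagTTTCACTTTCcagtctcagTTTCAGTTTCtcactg
Oas3: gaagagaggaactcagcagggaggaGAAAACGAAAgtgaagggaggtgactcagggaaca
Rsad2: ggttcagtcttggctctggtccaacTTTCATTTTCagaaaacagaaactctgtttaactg

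The stretches hold 3 matches at Isg15, 2 at Ifit1 and 1 each at Oas3 and Rsad2, the first of each starting 78, 104, 75 and 120 bases before the gene start. Of the interferon-induced genes, 41 had a RefSeq promoter and 22 of these held a match (53.7%), against 4.0% of the 27025 genes in the table. Genes of interferon reception and signalling held one in 6 of 21, late neutrophil genes in 2 of 28 and heat shock genes in 0 of 17. A match describes the letters of the window and is not a test of binding.

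Isg15 (chromosome 4, 156199424 to 156200818, minus strand), which encodes a ubiquitin-like protein conjugated to other proteins during the antiviral response, had 1.79 and 1.51 CPM in GMP 1-2, against 10.1 and 10.3 CPM in GMP 3-4. It had 3.72 and 2.68 CPM in CMP 1-2, against 19.1 and 23.7 CPM in CMP 3-4, and a log2 change over both of -2.69 ± 0.14 (adjusted p = 1.87e-05). In each cell type both libraries of set 1-2 lay below both libraries of set 3-4. Irf7 (chromosome 7, 141262706 to 141266481, minus strand), the transcription factor that amplifies interferon production, measured 3.46 and 2.96 CPM in GMP 1-2, against 20.4 and 19.5 CPM in GMP 3-4. Irf7 stood at 10.1 and 9.21 CPM in CMP 1-2, against 63.8 and 69.3 CPM in CMP 3-4. Its log2 change was -2.64 ± 0.12 in GMP and -2.78 ± 0.11 in CMP, and the effect did not differ between the cell types at the threshold (adjusted p = 0.708). Its sets did not overlap, and -2.71 ± 0.087 over both (adjusted p = 1.21e-06) made it the gene with the smallest p of the signalling list.

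Among effectors, Oas3, which makes the 2-5A messenger that activates RNase L, had 3.54 and 3.56 CPM in GMP 1-2, against 16.6 and 15.1 CPM in GMP 3-4. Oas3 stood at 7.67 and 10.01 CPM in CMP 1-2, against 41.4 and 36.96 CPM in CMP 3-4 (log2 change -2.15 ± 0.10, adjusted p = 1.32e-05). Ifit1, which binds viral RNA lacking the host cap, had 1.17 and 0.335 CPM in GMP 1-2, against 8.82 and 9.40 CPM in GMP 3-4. Ifit1 stood at 1.88 and 3.29 CPM in CMP 1-2, against 10.8 and 11.8 CPM in CMP 3-4 (log2 change -2.81 ± 0.41, adjusted p = 0.00383). Usp18, which removes Isg15 from proteins and damps the receptor, had 2.06 and 1.52 CPM in GMP 1-2, against 8.48 and 6.56 CPM in GMP 3-4. Usp18 stood at 5.04 and 3.82 CPM in CMP 1-2, against 20.6 and 21.1 CPM in CMP 3-4 (log2 change -2.16 ± 0.15). All 3 genes had no overlap between the sets in either cell type, which the rule that named them required. Each stayed called with any 1 of the 8 libraries left out. Rtp4, Ifi44, Iigp1, Ifi204, Oas2, Oasl1 and Oasl2 also stood among the named genes, with log2 changes over both from -2.61 for Rtp4 to -1.90 for Oasl1. Ifi204 belongs to a gene cluster of near-identical members, as do Oas1a and Oas1g, so how reads were shared among the copies is uncertain. The 4 members not called over both were Eif2ak2, Ifi47, Samhd1 and Gbp3, named after their values were seen, with log2 changes of -0.24 ± 0.077, -0.20 ± 0.062, -0.17 ± 0.075 and 0.01 ± 0.065.

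**Figure D2:**
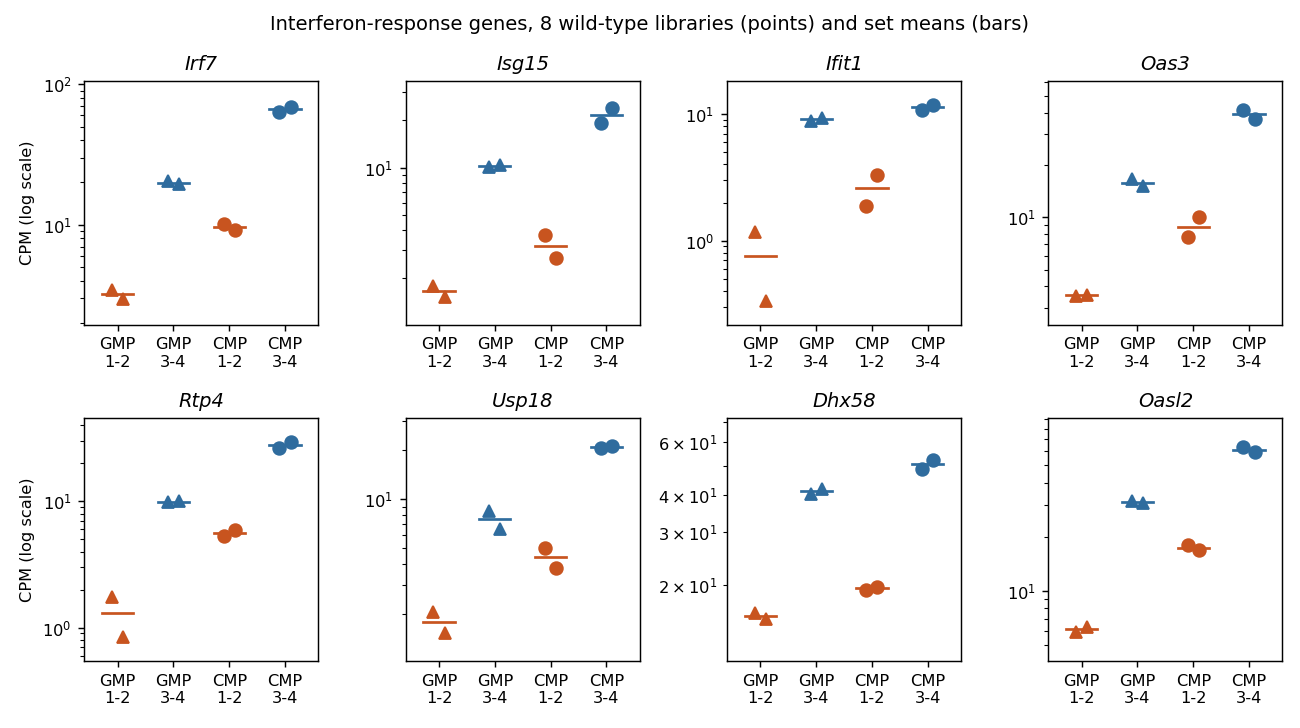
CPM on a log axis of 8 interferon-response genes in the 8 wild-type libraries, with GMP 1-2, GMP 3-4, CMP 1-2 and CMP 3-4 from left to right; points are libraries, bars are means of the 2 libraries. In every panel both libraries of set 1-2 lie below both libraries of set 3-4 in each cell type; Irf7, for example, had 3.46 and 2.96 CPM in GMP 1-2, against 20.4 and 19.5 CPM in GMP 3-4.

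The receptor and signalling genes had a smaller median change, a difference that was not tested. Of 26 tested, 11 were lower over both cell types and 1 higher, beside 8.5% and 7.3% of all genes. Their median log2 change was -0.15. With any 1 library left out 7 to 9 were lower, 7 of them without CMP 2, CMP 3, CMP 4 or GMP 2. Beside Irf7, the RNA sensors Dhx58 and Ddx58 and the endosomal receptor Tlr7 had the smallest p. Dhx58 had 16.03 and 15.3 CPM in GMP 1-2, against 40.2 and 41.8 CPM in GMP 3-4. Dhx58 stood at 19.3 and 19.7 CPM in CMP 1-2, against 48.7 and 52.3 CPM in CMP 3-4 (log2 change -1.38 ± 0.065, adjusted p = 1.32e-05). Tlr7 had 1.27 and 0.81 CPM in GMP 1-2, against 2.64 and 2.65 CPM in GMP 3-4. Tlr7 stood at 2.15 and 2.32 CPM in CMP 1-2, against 6.81 and 6.80 CPM in CMP 3-4 (log2 change -1.48 ± 0.18, adjusted p = 0.00193). Neither gene's sets overlapped. Chosen after their values were seen, the subunits of the receptor itself had log2 changes of -0.05 ± 0.061 for Ifnar1 and -0.08 ± 0.074 for Ifnar2, and neither was called. Irf9, which binds the ISRE, was lower (-0.46 ± 0.089), while Stat2 was not called (0.00 ± 0.073). The member that was higher was E330016A19Rik (0.33 ± 0.059).

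The same split of numbers exists in the KO libraries, which share no library with the wild type, although KO GMP 1-2 is 1 library and the KO 1-2 libraries are those with high Xist. The KO 1-2 libraries also had more of the stromal chemokine Cxcl12: 49.0 CPM in KO GMP 1, against 0.986 and 1.12 CPM in KO GMP 3-4, and 90.6 and 127 CPM in KO CMP 1-2, against 3.10 and 2.33 CPM in KO CMP 3-4. The part of either in the KO values was not tested. The median log2 change of the interferon-induced genes was -0.81 in wild-type GMP and -0.59 in KO GMP, and -0.95 in wild-type CMP and -0.90 in KO CMP. In KO, 47 of 51 members had a negative change in GMP and 49 in CMP, beside all-gene medians of 0 and 0.001. These KO values are descriptions without a test.

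**Figure D3:**
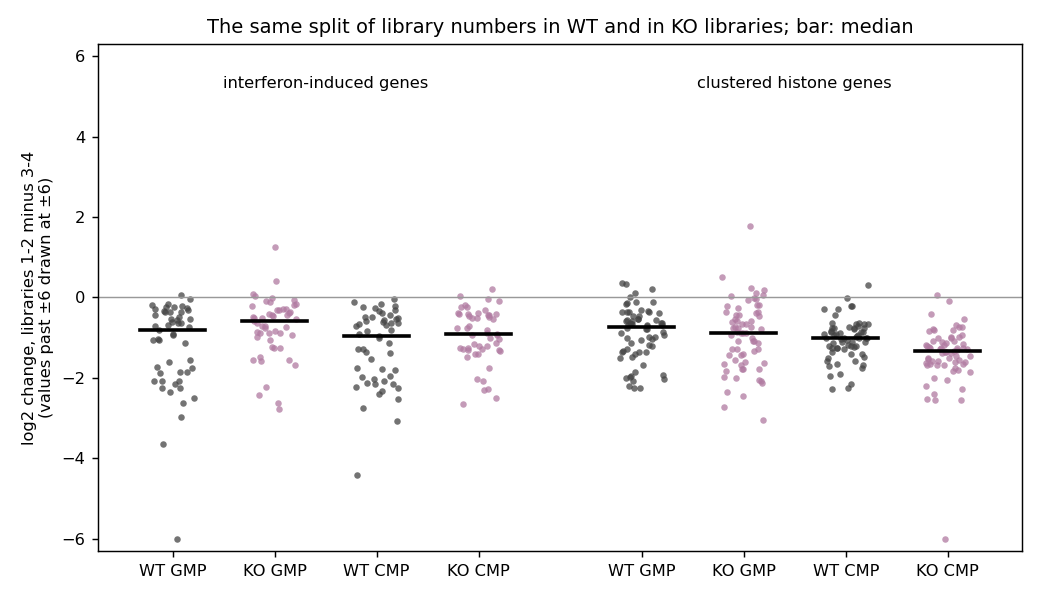
Log2 change between libraries 1-2 and 3-4 for each tested interferon-induced gene (left) and each tested clustered histone gene (right), in wild-type and then KO libraries of GMP and CMP; points are genes, bars medians. All 8 medians lie below 0, from -0.59 for interferon-induced genes in KO GMP to -1.34 for histone genes in KO CMP.

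Transcripts of the replication-dependent histone clusters, which normally end in a stem-loop rather than a poly(A) tail, were also lower in libraries 1-2. This list was added after values were seen: 42 of 66 tested genes were lower over both cell types, 22 in GMP and 37 in CMP, with medians of -0.89 over both, -0.73 in GMP and -1.01 in CMP. Of all genes 8.5% were lower over both, 4.74% in GMP and 9.55% in CMP. Hist1h1c, a linker histone, had 62.7 and 58.4 CPM in GMP 1-2, against 138 and 143 CPM in GMP 3-4. Hist1h1c stood at 62.7 and 53.3 CPM in CMP 1-2, against 127 and 149.7 CPM in CMP 3-4 (log2 change -1.24 ± 0.078, adjusted p = 3.73e-05). Hist1h4i, a core histone H4 gene, had 15.3 and 13.4 CPM in GMP 1-2, against 37.2 and 36.9 CPM in GMP 3-4. Hist1h4i stood at 18.9 and 11.7 CPM in CMP 1-2, against 34.8 and 40.1 CPM in CMP 3-4 (log2 change -1.33 ± 0.14). The sets of both genes did not overlap. Histone genes are near-identical copies, so single members are uncertain, but the summed level of the list was 308 and 298 CPM in GMP 1-2, against 546 and 569 CPM in GMP 3-4, and 322 and 282 CPM in CMP 1-2, against 562 and 659.8 CPM in CMP 3-4. Histone genes are short, and across all genes the set change went with length (Spearman 0.27 over 14729 genes) and GC content (-0.19), values given as descriptions. With a per-library trend on GC content and length removed, 28 histone genes were called lower and the median was -0.67. Over both cell types 25 were lower without CMP 2 and 26 without CMP 4, in GMP 11, 13, 14 and 10 without GMP 1, GMP 2, GMP 3 and GMP 4, and in CMP 22 without CMP 2 and 21 without CMP 4. Of 36 DNA replication genes 3 were higher and 0 lower by edgeR over both cell types, beside 7.3% and 8.5% of all genes. At an unadjusted p under 0.05, 3 were lower, and by DESeq2 2, and their median was -0.03. The higher count was 0 without CMP 3 or CMP 4 and 1 without CMP 2 or any 1 GMP library.

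Genes of granulocyte maturation parted the sets in opposite directions in GMP and CMP. Of 22 tested primary granule genes, 0 were higher and 6 lower in GMP, and 15 were higher and 0 lower in CMP, with medians of -0.20 and 0.90, the counts of 0 being 0 also by DESeq2 and at an unadjusted p under 0.05. Of all genes 2.87% were higher and 4.74% lower in GMP, and 11.6% and 9.55% in CMP. The set effect was lower in GMP than in CMP for 15 members, beside 3.77% of all genes. In CMP the count of higher genes was 14 to 15 whichever library was left out, while the count of lower genes in GMP was 2, 1, 3 and 1 without GMP 1, GMP 2, GMP 3 and GMP 4. Over both cell types 0 primary granule genes were called by edgeR, 4 were higher and 1 lower at an unadjusted p under 0.05, 1 higher and 1 lower by DESeq2, 11 higher and 1 lower by limma voom with the block, and 3 higher and 1 lower with the GMP and CMP counts of each number summed. The same split of the KO libraries gave list medians of -0.88 in GMP and -0.64 in CMP, without a test.

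Elane (chromosome 10, 79886247 to 79888215, plus strand), which encodes neutrophil elastase, had 7360.3 and 7632 CPM in GMP 1-2, against 7297 and 7170.4 CPM in GMP 3-4. Elane stood at 3443 and 3898 CPM in CMP 1-2, against 1023 and 1164 CPM in CMP 3-4. The CMP libraries of set 1-2 stood above those of set 3-4 without overlap: the log2 change was 0.05 ± 0.086 in GMP (adjusted p = 0.759) and 1.75 ± 0.089 in CMP (adjusted p = 1.72e-06). The difference between the cell types was -1.70 ± 0.12 (adjusted p = 3.15e-05). Ms4a3, a membrane protein of granulocyte-monocyte progenitors, had 811 and 719 CPM in GMP 1-2, against 806 and 856 CPM in GMP 3-4. Ms4a3 stood at 383 and 464 CPM in CMP 1-2, against 120.2 and 139 CPM in CMP 3-4, with a log2 change in CMP of 1.71 ± 0.12. Mpo, myeloperoxidase, had 22538 and 23762 CPM in GMP 1-2, against 23839.8 and 24472 CPM in GMP 3-4. Mpo stood at 13007 and 14896 CPM in CMP 1-2, against 7969 and 8142 CPM in CMP 3-4, with a log2 change in CMP of 0.79 ± 0.075 (adjusted p = 9.94e-05). Prtn3 and Ctsg, serine proteases of the same granules, changed by 0.97 ± 0.087 and 0.99 ± 0.097 in CMP. In GMP, Prtn3 was not called (-0.11 ± 0.086), and Ctsg was lower (-0.37 ± 0.097, adjusted p = 0.0479), a call that ended when GMP 1, GMP 2, GMP 3, GMP 4, CMP 1 or CMP 2 was left out.

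Late neutrophil genes, those of secondary and tertiary granules and of calprotectin, differed between the sets as well. Of 29 tested, 1 was higher and 18 lower in GMP (median -0.95), beside 2.87% and 4.74% of all genes. In CMP 18 were higher and 3 lower (median 0.57), beside 11.6% and 9.55%. The GMP count was 13, 11, 13 and 12 without GMP 1, GMP 2, GMP 3 and GMP 4, and the CMP count 16 to 18. The set effect was lower in GMP than in CMP for 18 members, beside 3.77% of all genes. That count stayed at 18 in each of the 8 fits without a library. In the KO libraries, where KO GMP 1-2 is 1 library, the same split gave list medians of -2.06 in GMP and -1.19 in CMP. This was not tested. S100a8, a calprotectin subunit, had 183 and 167 CPM in GMP 1-2, against 338 and 451 CPM in GMP 3-4. S100a8 stood at 144 and 179 CPM in CMP 1-2, against 7.22 and 9.54 CPM in CMP 3-4. Camp, the cathelicidin of secondary granules, had 4.11 and 3.49 CPM in GMP 1-2, against 21.4 and 21.3 CPM in GMP 3-4. Camp stood at 4.77 and 3.46 CPM in CMP 1-2, against 1.29 and 1.60 CPM in CMP 3-4. For S100a8 the set effects were -1.18 ± 0.17 in GMP and 4.27 ± 0.19 in CMP, and for Camp -2.49 ± 0.20 and 1.51 ± 0.20, each called in its cell type. In both genes set 1-2 was the lower set in GMP and the higher set in CMP, without overlap.

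Ltf and Retnlg did not follow that reversal. Ltf, lactoferrin of secondary granules, had 0.894 and 0.95 CPM in GMP 1-2, against 4.23 and 4.36 CPM in GMP 3-4. Ltf stood at 0.411 and 0.742 CPM in CMP 1-2, against 3.46 and 3.38 CPM in CMP 3-4. Retnlg, a resistin-like neutrophil protein, had 0.138 and 0.266 CPM in GMP 1-2, against 6.72 and 7.07 CPM in GMP 3-4. Retnlg stood at 0.0967 and 0.191 CPM in CMP 1-2, against 1.18 and 1.49 CPM in CMP 3-4. Both were lower in libraries 1-2 in both cell types, with log2 changes over both of -2.39 ± 0.23 and -4.18 ± 0.44 (adjusted p = 0.000442 and 0.000777). In GMP 1 and CMP 1 Retnlg lay under the floor of 3 fragments (floors of 0.206 and 0.145 CPM), so the size of its change is uncertain. Mmp8, a neutrophil collagenase, was lower (-0.77 ± 0.18), a call lost without CMP 2, and Padi4, which citrullinates histones in neutrophils, was higher (0.45 ± 0.095), a call lost without GMP 4.

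The genes with the smallest p for a set effect that was lower in GMP than in CMP were Vcam1, Chi3l3, Fcnb, Prg2 and Epx. Vcam1 (chromosome 3, 116109949 to 116129688, minus strand), an adhesion molecule bound by integrins, had 117 and 109 CPM in GMP 1-2, against 113 and 119.5 CPM in GMP 3-4. Vcam1 stood at 92.7 and 102 CPM in CMP 1-2, against 5.07 and 5.02 CPM in CMP 3-4. Fcnb (chromosome 2, 28076378 to 28084885, minus strand), a ficolin stored in myeloid cells, had 33.5 and 31.5 CPM in GMP 1-2, against 65.7 and 61.6 CPM in GMP 3-4. Fcnb stood at 24.2 and 22.2 CPM in CMP 1-2, against 0.929 and 0.711 CPM in CMP 3-4. Chi3l3, a chitinase-like protein with near-identical paralogs, had 40.6 and 39.1 CPM in GMP 1-2, against 184 and 193 CPM in GMP 3-4. Chi3l3 stood at 11.99 and 11.5 CPM in CMP 1-2, against 2.38 and 1.98 CPM in CMP 3-4. The GMP sets of Vcam1 overlapped, and its CMP sets did not. The difference between the cell types was -4.31 ± 0.13 for Vcam1, -5.78 ± 0.18 for Fcnb and -4.66 ± 0.14 for Chi3l3, with adjusted p of 9.31e-08, 9.31e-08 and 9.31e-08, and stayed past the threshold with each library left out.

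**Figure D4:**
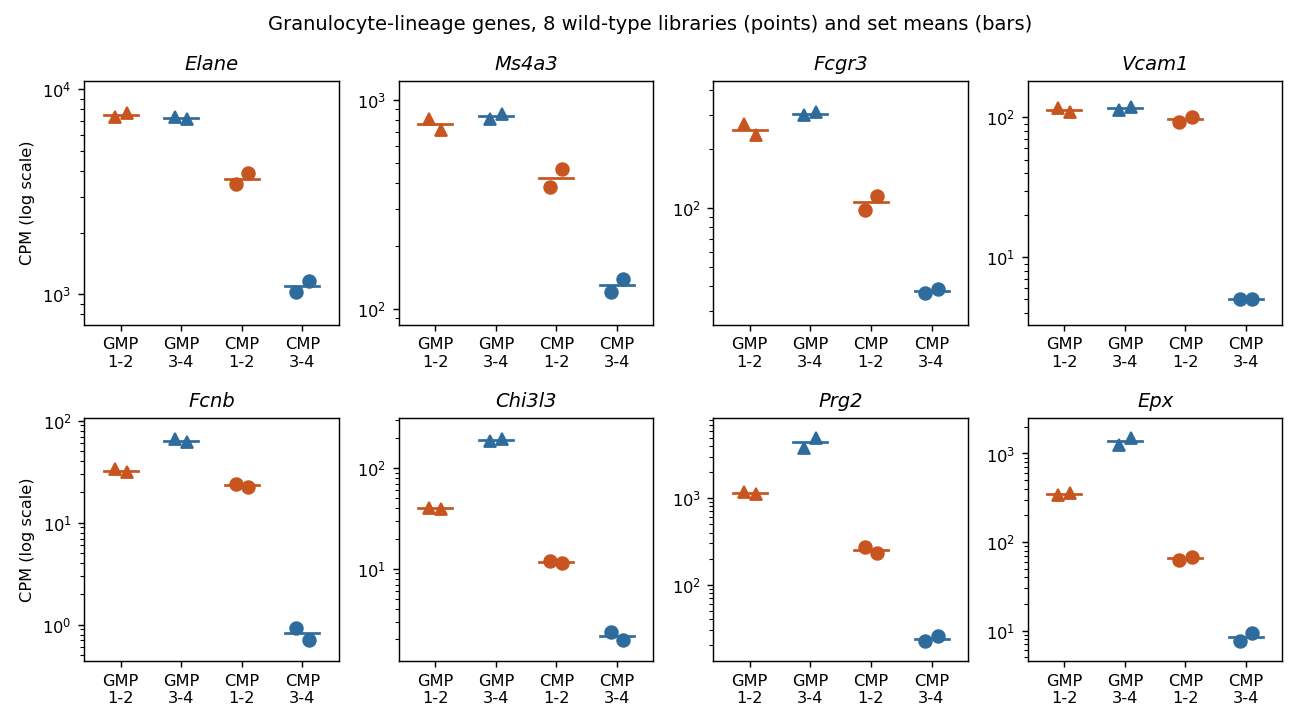
CPM on a log axis of 8 granulocyte-lineage genes in the 8 wild-type libraries, with GMP 1-2, GMP 3-4, CMP 1-2 and CMP 3-4 from left to right; points are libraries, bars are means of the 2 libraries. In CMP all 8 genes are higher in set 1-2, and in GMP Fcnb, Chi3l3, Prg2 and Epx are lower in set 1-2.

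Eosinophil granule genes showed the reversal at high levels in GMP. Prg2, the eosinophil major basic protein (chromosome 2, 84980461 to 84983632, plus strand), had 1178 and 1127 CPM in GMP 1-2, against 3807 and 4974 CPM in GMP 3-4. Prg2 stood at 275 and 234 CPM in CMP 1-2, against 22.1 and 25.4 CPM in CMP 3-4. Epx, eosinophil peroxidase (chromosome 11, 87864000 to 87875536, minus strand), had 342 and 363 CPM in GMP 1-2, against 1239.7 and 1495 CPM in GMP 3-4. Epx stood at 62.8 and 68.2 CPM in CMP 1-2, against 7.62 and 9.46 CPM in CMP 3-4. Set effects were -1.93 ± 0.13 in GMP and 3.42 ± 0.14 in CMP for Prg2, and -1.96 ± 0.12 and 2.94 ± 0.13 for Epx, with no overlap in either cell type. Of 21 tested mast cell, basophil and eosinophil genes, 1 was higher and 8 lower in GMP (median -0.56), beside 2.87% and 4.74% of all genes. In CMP 13 were higher and 0 lower (median 0.92), beside 11.6% and 9.55%. There DESeq2 called 1 lower, and 2 were lower at an unadjusted p under 0.05. In GMP the 8 lower members were Ear1, Ear2, Ear6, Epx, Prg2, Prg3, Il5ra and Siglec5, named after their values were seen, while the higher one was Fcer1a, the receptor subunit for IgE on mast cells and basophils. The GMP calls of Fcer1a and Il5ra were lost without any 1 GMP library, and that of Siglec5 without GMP 1. Fcer1a had 66.6 and 61.5 CPM in GMP 1-2, against 37.02 and 42.5 CPM in GMP 3-4. Fcer1a stood at 16.7 and 23.02 CPM in CMP 1-2, against 9.61 and 9.97 CPM in CMP 3-4, higher over both cell types (0.85 ± 0.12, adjusted p = 0.00311). Prss34, a basophil protease, had 689 and 692 CPM in GMP 1-2, against 648 and 594 CPM in GMP 3-4. Prss34 stood at 60.8 and 69.6 CPM in CMP 1-2, against 19.9 and 25.4 CPM in CMP 3-4, with a change over both of 0.83 ± 0.25 (adjusted p = 0.0489) that was called in 3 of 8 fits without a library. The summed level of the list was 3135 to 3197 CPM in GMP 1-2, against 7201 to 8864 CPM in GMP 3-4, and 705 to 706 CPM in CMP 1-2, against 260.2 to 283 CPM in CMP 3-4. The KO libraries split the same way gave list medians of 0.14 in GMP and -0.13 in CMP, without a test. Members went both ways there, with a negative change for 9 of the 21 in KO GMP and 12 in KO CMP. On the 15-library scale Prg2 had 368 CPM in KO GMP 1, against 2546 and 2537 CPM in KO GMP 3-4. Cpa3, another member named after its values were seen, had 371 CPM in KO GMP 1, against 126 and 114 CPM in KO GMP 3-4. In bulk RNA, fewer cells of a type and less RNA per cell cannot be told apart.

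Genes of the sort gate and of Fc receptors differed between the sets in both cell types. Of 7 tested, 1 was higher and 3 lower in GMP, where 7.61% of all genes were called. In CMP, where 21.1% were, 2 were higher and 3 lower. The lower count in GMP was 1 without GMP 1, GMP 3 or GMP 4, and that in CMP 1 without CMP 2 or CMP 4. Fcgr3 (chromosome 1, 171051174 to 171064935, minus strand) had 269 and 236 CPM in GMP 1-2, against 299.5 and 309 CPM in GMP 3-4. Fcgr3 stood at 98.2 and 116 CPM in CMP 1-2, against 36.7 and 38.6 CPM in CMP 3-4, a log2 change of -0.27 ± 0.10 in GMP (adjusted p = 0.14) and 1.51 ± 0.11 in CMP (adjusted p = 1.39e-05). Fcgr2b, which encodes the CD32 receptor of the gate, had 65.5 and 67.7 CPM in CMP 1-2, against 48.6 and 51.3 CPM in CMP 3-4 (0.41 ± 0.082, adjusted p = 0.00685). Cd34 had 324 and 310.4 CPM in GMP 1-2, against 215 and 202 CPM in GMP 3-4. Cd34 stood at 518 and 574 CPM in CMP 1-2, against 647 and 682 CPM in CMP 3-4, higher in GMP (0.61 ± 0.086) and lower in CMP (-0.28 ± 0.086, called in 1 of 8 fits without a library), and its set effect differed between the cell types (adjusted p = 0.00209). Kit, the CD117 receptor, was not called (0.14 ± 0.077). Ly6a, which encodes Sca1, an exclusion marker of the gate and also an interferon-responsive gene, had 1.86 and 1.54 CPM in GMP 1-2, against 5.50 and 6.74 CPM in GMP 3-4. Ly6a stood at 11.7 and 11.7 CPM in CMP 1-2, against 33.3 and 42.9 CPM in CMP 3-4, lower over both (-1.77 ± 0.12, adjusted p = 6.21e-05). Of the other Fc receptor genes, Fcgr1 (-1.68 ± 0.25) and Fcgr4 (-0.80 ± 0.22, called in 2 of 8 fits without a library) were lower.

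Of 19 tested myeloid transcription factors, 4 were higher and 3 lower in GMP, where 7.61% of all genes were called, and 9 were higher and 1 lower in CMP, where 21.1% were. In GMP the higher count was 1, 0, 1 and 0 and the lower count 2, 1, 2 and 1 without GMP 1, GMP 2, GMP 3 and GMP 4. Cebpe, needed for late granulocyte maturation and named after its values were seen, had 84.7 and 81.9 CPM in GMP 1-2, against 139 and 143 CPM in GMP 3-4. Cebpe stood at 62.5 and 59.2 CPM in CMP 1-2, against 14.4 and 15.9 CPM in CMP 3-4, lower in GMP (-0.76 ± 0.083) and higher in CMP (2.01 ± 0.087). Gfi1, a repressor that favours granulocytes over monocytes and named in the same way, had 172 and 183 CPM in GMP 1-2, against 209 and 219.8 CPM in GMP 3-4. Gfi1 stood at 151 and 135 CPM in CMP 1-2, against 53.7 and 55.7 CPM in CMP 3-4, with 1.38 ± 0.089 in CMP. Irf8, a monocyte and dendritic cell factor chosen likewise, was the lower member in CMP (-0.53 ± 0.075). Over both cell types Zeb2 (0.65 ± 0.083), Cebpa (0.37 ± 0.072) and Cebpb (0.53 ± 0.12, lost without CMP 4) were higher, and Id1, an inhibitor of basic helix-loop-helix factors, was lower (-0.72 ± 0.16, called in 4 of 8 fits without a library).

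Of 26 tested stem and multipotent progenitor genes, 5 were higher and 0 lower in GMP (median 0.16), where DESeq2 called 1 lower and 5 were lower at an unadjusted p under 0.05, and 1 was higher and 10 lower in CMP (median -0.29). Over all genes 2.87% were higher and 4.74% lower in GMP, and 11.6% and 9.55% in CMP. The set effect was higher in GMP than in CMP for 8 of these 26 genes, beside 1.53% of all genes. It was so for 2 to 7 with 1 library left out (3, 5, 2, 4, 3 and 4 without CMP 2, CMP 3, GMP 1, GMP 2, GMP 3 and GMP 4). The CMP count of lower genes was 5 without CMP 2 and 6 without CMP 4, and the GMP count of higher genes was 3, 2, 2 and 3 without GMP 1, GMP 2, GMP 3 and GMP 4. Lmo2, a haematopoietic transcription cofactor, had 250.002 and 237 CPM in GMP 1-2, against 295 and 282 CPM in GMP 3-4. Lmo2 stood at 376 and 361 CPM in CMP 1-2, against 500.1 and 531 CPM in CMP 3-4 (log2 change over both -0.36 ± 0.071). Vldlr, a lipoprotein receptor, was lower over both (-0.74 ± 0.15, lost without CMP 2), and so was Hlf, a factor of stem cells (-0.39 ± 0.091, lost without CMP 3 and without GMP 4). Mecom, another stem cell factor, did not go with them: it had 2.10 and 1.58 CPM in GMP 1-2, against 0.511 and 0.553 CPM in GMP 3-4. Mecom stood at 18.1 and 18.1 CPM in CMP 1-2, against 11.1 and 9.68 CPM in CMP 3-4, higher over both (1.21 ± 0.20, adjusted p = 0.00716).

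A measure of the step from CMP to GMP was taken from KO libraries, which are outside the comparison. They bear the numbers 3-4, as 1 of the wild-type sets does. A difference that goes with those numbers in both genotypes would enter the choice of genes, and its part was not tested. The 100 genes higher in the libraries labelled KO GMP 3-4 than in those labelled KO CMP 3-4 with the largest change included 92 tested here, of which 1 was higher and 24 lower in GMP (median -0.73), and 61 were higher and 1 lower in CMP (median 2.81). Of all genes 2.87% were higher and 4.74% lower in GMP, and 11.6% and 9.55% in CMP. With those of the 92 listed at 0 in a whole set put at the detection floor, the medians were -0.67 in GMP and 2.56 in CMP. Without any 1 GMP library the count of lower genes in GMP was 16 to 17, and in CMP the higher count stayed between 53 and 61. These genes shared 7 members with the eosinophil list and 6 with the late neutrophil list, so they are no separate measure of those genes. Genes chosen in the same way in KO libraries 1-2, 98 of them tested, had 3 higher and 22 lower in GMP (median -0.17), and 80 higher and 3 lower in CMP (median 1.27). The 100 genes higher in KO CMP 3-4 than in KO GMP 3-4, 99 of them tested, had 1 higher and 3 lower in CMP. In GMP 62 of the 99 were listed at 0 throughout at least 1 set, so their GMP counts are not read.

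Of 28 tested monocyte and macrophage genes, 2 were higher and 10 lower over both cell types (median -0.19), beside 7.3% and 8.5% of all genes. The lower count was 6 without CMP 3 or GMP 4. The higher count was 0 without CMP 2 or CMP 4 and 1 without CMP 1, CMP 3, GMP 1 or GMP 4. The set effect differed between the cell types for 9 of the 28 genes, higher in GMP for 4 and lower for 5. Of all genes 5.3% differed, 1.53% higher and 3.77% lower in GMP. Cd14, the lipopolysaccharide co-receptor, had 32.6 and 32.2 CPM in GMP 1-2, against 56.1 and 57.4 CPM in GMP 3-4. Cd14 stood at 15.1 and 12.5 CPM in CMP 1-2, against 22.6 and 28.3 CPM in CMP 3-4 (log2 change -0.84 ± 0.092, adjusted p = 0.001). Ccr2, the chemokine receptor that takes monocytes out of the marrow, was lower by less (-0.40 ± 0.077), as was Lgals3, a galectin of macrophages (-0.46 ± 0.072). Ly6c2, a monocyte surface marker named after its values were seen, had 2704 and 2425 CPM in GMP 1-2, against 2230.2 and 2263 CPM in GMP 3-4. Ly6c2 stood at 783 and 862 CPM in CMP 1-2, against 369.6 and 404 CPM in CMP 3-4, higher over both (0.64 ± 0.16, adjusted p = 0.031), a call lost without any 1 CMP library.

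Stress genes were mixed. Of 22 tested cytosolic heat shock genes, 9 were higher in libraries 1-2 over both cell types and 1 was lower, beside 7.3% and 8.5% of all genes. Their median was 0.21, and 7 to 8 were higher whichever library was left out. Hspa1b, an inducible Hsp70, had 12.02 and 12.5 CPM in GMP 1-2, against 3.99 and 4.73 CPM in GMP 3-4. Hspa1b stood at 12.6 and 8.79 CPM in CMP 1-2, against 3.73 and 4.23 CPM in CMP 3-4 (log2 change 1.46 ± 0.14, adjusted p = 0.000398). Hspa1a, its near-identical neighbour on chromosome 17, with which it may share reads, had 9.87 and 8.66 CPM in GMP 1-2, against 4.85 and 4.58 CPM in GMP 3-4. Hspa1a stood at 13.3 and 9.46 CPM in CMP 1-2, against 6.98 and 5.99 CPM in CMP 3-4 (0.89 ± 0.14). Neither gene's sets overlapped, and in the KO libraries the same split gave -0.13 in GMP and -1.07 in CMP for Hspa1b. Hsph1 (0.51 ± 0.064), an Hsp110 that exchanges nucleotide on Hsp70, and the co-chaperone Dnajb4 (0.57 ± 0.087) were higher too.

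Of the chaperones and unfolded-protein genes of the endoplasmic reticulum, 16 of 30 were higher in CMP, beside 11.6% of all genes. Of 30 tested, 1 was higher and 0 lower in GMP (median 0.01; DESeq2 called 3 lower, and 6 were lower at an unadjusted p under 0.05), and 16 were higher and 0 lower in CMP (median 0.32; 0 lower also by DESeq2 and unadjusted). The CMP count was 9 without CMP 2, and over both cell types the count of 8 was 4, 3, 3 and 2 without CMP 1, CMP 2, CMP 3 and CMP 4. Dnajc3, a co-chaperone of BiP, had 304 and 293 CPM in GMP 1-2, against 249.6 and 250.1 CPM in GMP 3-4. Dnajc3 stood at 211 and 234 CPM in CMP 1-2, against 130.1 and 126 CPM in CMP 3-4, with 0.26 ± 0.082 in GMP and 0.80 ± 0.083 in CMP (adjusted p of the difference = 0.0259). Hyou1, another chaperone of the compartment, was higher in CMP (0.57 ± 0.088), and Herpud1, a degradation factor, was higher over both (0.36 ± 0.059).

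Targets of NF-kB went both ways: 5 of 26 were higher and 4 lower over both cell types, beside 7.3% and 8.5% of all genes. The lower count was 2 without CMP 2, CMP 3, CMP 4 or GMP 4. Cxcl2, a neutrophil-attracting chemokine, had 39.02 and 44.4 CPM in GMP 1-2, against 7.90 and 8.40 CPM in GMP 3-4. Cxcl2 stood at 26.9 and 14.7 CPM in CMP 1-2, against 8.43 and 6.75 CPM in CMP 3-4 (log2 change 1.90 ± 0.23, adjusted p = 0.00177). Tnfaip3, a feedback inhibitor of the pathway, had 162 and 155 CPM in GMP 1-2, against 62.8 and 62.5 CPM in GMP 3-4. Tnfaip3 stood at 138 and 111 CPM in CMP 1-2, against 65.4 and 53.2 CPM in CMP 3-4 (1.21 ± 0.099, adjusted p = 0.00022). Ccl4, a chemokine for lymphocytes and monocytes, was lower, with 11.4 and 10.6 CPM in GMP 1-2, against 20.2 and 21.8 CPM in GMP 3-4. Ccl4 stood at 20.8 and 14.1 CPM in CMP 1-2, against 55.3 and 65.7 CPM in CMP 3-4 (-1.37 ± 0.19). The sets did not overlap for any of the 3 genes, and Nfkbia, the inhibitor of NF-kB, was higher (0.82 ± 0.11).

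Immediate early genes, which respond to stimulation within minutes, went both ways, with 4 of 33 higher and 4 lower over both, beside 7.3% and 8.5% of all genes. In GMP 11 were higher and 3 lower, beside 2.87% and 4.74% of all genes, and 6, 4, 3 and 3 were higher without GMP 1, GMP 2, GMP 3 and GMP 4. In CMP 5 were higher and 11 lower, beside 11.6% and 9.55%, with 3 higher without CMP 1 or CMP 4, and 6 and 7 lower without CMP 2 and CMP 4. Klf2, a quiescence-associated zinc-finger factor, had 45.8 and 47.5 CPM in GMP 1-2, against 124 and 136 CPM in GMP 3-4. Klf2 stood at 55.2 and 50.04 CPM in CMP 1-2, against 152 and 172 CPM in CMP 3-4 (log2 change -1.55 ± 0.073, adjusted p = 1.32e-05). Rhob, an early-response GTPase (-0.68 ± 0.073), and Btg2, an antiproliferative gene (-0.85 ± 0.096), were lower as well. All 3 had no overlap between the sets.

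Targets of p53 had 10 of 28 lower over both cell types and 2 higher, beside 8.5% and 7.3% of all genes, with a median of -0.31. Pmaip1, which encodes the death-promoting protein Noxa, had 24.2 and 28.7 CPM in GMP 1-2, against 104 and 121 CPM in GMP 3-4. Pmaip1 stood at 26.6 and 20.9 CPM in CMP 1-2, against 63.7 and 62.3 CPM in CMP 3-4 (log2 change -1.75 ± 0.15, adjusted p = 0.000245). Phlda3, an inhibitor of Akt, had 0.275 and 0.559 CPM in GMP 1-2, against 2.42 and 2.93 CPM in GMP 3-4. Phlda3 stood at 1.63 and 1.03 CPM in CMP 1-2, against 6.69 and 7.29 CPM in CMP 3-4 (-2.51 ± 0.26). Both separated the sets without overlap. Psrc1, a spindle protein on the same list, was lower (-0.96 ± 0.084), and the count of lower members was 8 to 10 with any 1 library left out, while the higher count was 0 without CMP 1 or any 1 GMP library and 1 without CMP 2 or CMP 4. The KO libraries split the same way gave medians of 0.31 in GMP and 0.16 in CMP for this list.

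The remaining stress lists had few called members over both cell types, where 7.3% of all genes were higher and 8.5% lower. Of 24 ATF4 and CHOP targets 4 were higher and 1 lower, with 1 higher without CMP 4 and 2 without CMP 1, CMP 2, CMP 3, GMP 1 or GMP 4, and of 25 NRF2 and antioxidant genes 1 was higher and 3 lower, with 1 lower without CMP 1. Srxn1, which repairs oxidised peroxiredoxins, was the higher one (0.59 ± 0.10), and Txn1, thioredoxin, was lower (-0.54 ± 0.11).

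**Figure D5:**
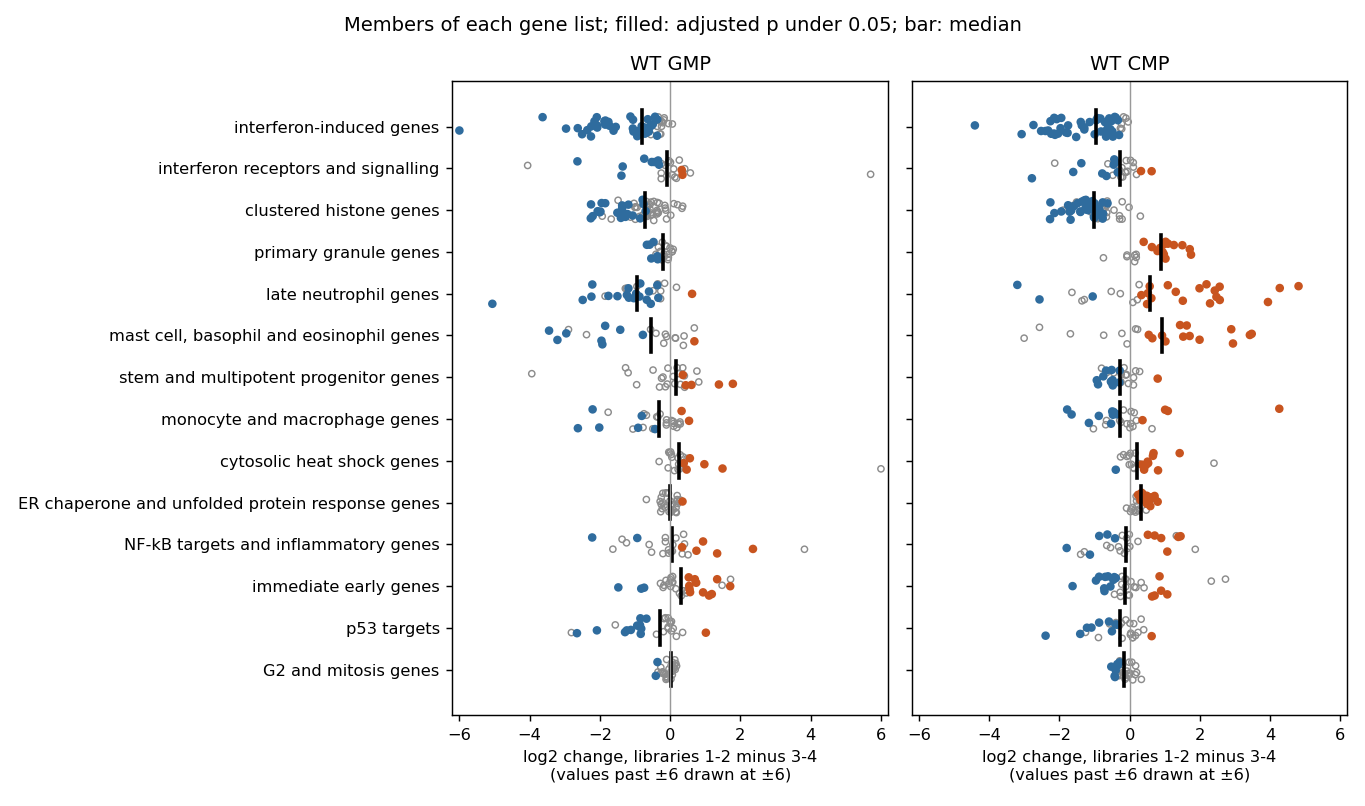
Log2 change between libraries 1-2 and 3-4 of every tested member of 14 gene lists in wild-type GMP (left) and CMP (right); filled points passed the test (orange higher, blue lower in libraries 1-2), open points did not, and black bars are medians. The interferon-induced genes lie to the left in both panels, and the medians of the primary granule, late neutrophil and mast cell, basophil and eosinophil lists lie left of 0 in GMP and right of 0 in CMP.

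Genes outside these lists were named for the size of their change. Emp1, a tetraspan membrane protein, was the gene lowest in libraries 1-2 among those with at least 5 CPM in the higher set: it had 0.086 and 0.182 CPM in GMP 1-2, against 1.61 and 1.34 CPM in GMP 3-4. Emp1 stood at 2.09 and 2.30 CPM in CMP 1-2, against 18.9 and 19.8 CPM in CMP 3-4 (log2 change -3.23 ± 0.18, adjusted p = 1.87e-05). Among higher genes, Ryr3, a ryanodine receptor that releases stored calcium, had 7.82 and 5.63 CPM in GMP 1-2, against 0.687 and 0.63 CPM in GMP 3-4. Ryr3 stood at 4.31 and 4.69 CPM in CMP 1-2, against 0.999 and 1.14 CPM in CMP 3-4 (2.69 ± 0.29, adjusted p = 0.000817). Aldh1a1, a retinaldehyde dehydrogenase, had 1.87 and 2.74 CPM in GMP 1-2, against 0.334 and 0.0643 CPM in GMP 3-4. Aldh1a1 stood at 31.5 and 36.6 CPM in CMP 1-2, against 9.63 and 10.9 CPM in CMP 3-4 (2.31 ± 0.36). The rule that named these 3 genes required that the sets not overlap, and all 3 stayed called with any library left out. Emp1 in GMP 1 and Aldh1a1 in GMP 4 lay under the floor of 3 fragments, so the sizes of their changes are uncertain. Aff2 (3.72 ± 0.84, lost without CMP 3), Otogl (1.85 ± 0.33), Myo18b (2.13 ± 0.59), Glt1d1 (1.85 ± 0.48) and Spon2 (1.73 ± 0.44) were higher too, and the last 3 were called in 3, 3 and 5 of 8 fits without a library.

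Markers of other cells that a progenitor sort could hold were checked beside these results. Of all genes 7.3% were higher and 8.5% lower over both cell types, 2.87% and 4.74% in GMP, and 11.6% and 9.55% in CMP. Of 18 tested stromal and endothelial genes 3 were higher and 1 lower, and their summed level was 239.6 to 244 CPM in GMP 1-2, against 242 to 244 CPM in GMP 3-4, and 252 to 260 CPM in CMP 1-2, against 176 to 182 CPM in CMP 3-4. Vcam1, described above, belongs to this list, and without it the sum was 126 to 129.7 CPM in GMP 1-2, against 124 to 127 CPM in GMP 3-4, and 157.6 to 157.8 CPM in CMP 1-2, against 171 to 176 CPM in CMP 3-4. Cxcl12, the chemokine that stromal cells use to hold progenitors in the marrow, had 2.34 and 1.52 CPM in GMP 1-2, against 0.381 and 0.862 CPM in GMP 3-4. Cxcl12 stood at 12.2 and 15.2 CPM in CMP 1-2, against 1.19 and 0.767 CPM in CMP 3-4 (log2 change 2.80 ± 0.48, adjusted p = 0.00774), while the collagen Col1a1 stayed at or below 0.718 CPM in all 8 libraries and was listed at 0 in CMP 4, GMP 1 and GMP 4. Dendritic cell and class II genes had 0 higher by edgeR (1 at an unadjusted p under 0.05, 0 by DESeq2) and 5 lower of 20, and their sum was 306 to 307 CPM in GMP 1-2, against 304 to 306 CPM in GMP 3-4, and 863 to 877 CPM in CMP 1-2, against 1095 to 1163 CPM in CMP 3-4. Siglech, of plasmacytoid dendritic cells, was listed at 0 in both GMP 1-2 libraries, against 0.139 and 0.283 CPM in GMP 3-4. The floors of 3 fragments were 0.206 and 0.168 CPM in GMP 1-2, and 0.112 and 0.154 CPM in GMP 3-4. Its GMP values thus lie near or under the floor, and their difference is not read. Siglech stood at 1.59 and 1.83 CPM in CMP 1-2, against 9.36 and 8.96 CPM in CMP 3-4. B cell and plasma cell genes had 4 lower of 20 over both cell types (1 without any 1 CMP library and 2 without GMP 3 or GMP 4). In GMP 3 were lower and 0 higher by edgeR, the count of 0 being 0 also by DESeq2 and at an unadjusted p under 0.05, and in CMP 3 were higher and 2 lower, with 1 lower without CMP 2 or CMP 4. Their sum was 125 to 128 CPM in GMP 1-2, against 228 to 235 CPM in GMP 3-4, and 453 to 571 CPM in CMP 1-2, against 340.01 to 382 CPM in CMP 3-4. Igj, the joining chain of secreted antibodies, named after its values were seen, had 75.7 and 76.9 CPM in GMP 1-2, against 175 and 171 CPM in GMP 3-4. Igj stood at 301 and 400.1 CPM in CMP 1-2, against 79.3 and 88.2 CPM in CMP 3-4, lower in GMP (-1.18 ± 0.12) and higher in CMP (2.07 ± 0.13), and its set effect differed between the cell types (adjusted p = 3.95e-06). Pou2af1, a B cell transcription coactivator chosen likewise, was higher in CMP (2.02 ± 0.27) and not called in GMP (0.02 ± 0.27). T and NK cell genes had 3 lower of 21, with Cd3e at or below 0.368 CPM. Erythroid genes had 1 higher and 2 lower of 26 and megakaryocyte genes 4 higher and 1 lower of 22 (1 higher without CMP 2 or GMP 4 and 2 without CMP 1, CMP 3 or CMP 4), with Selp (0.91 ± 0.15), an adhesion protein of platelets, the one with the smallest p. The part of these cells in the interferon and granule results was not tested.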

How the data were processed

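RNA from sorted bone marrow cells was converted to libraries using the SMARTER kit for mRNA-Seq, per the labels' protocols. Reads were aligned with HISAT to mm10, per the submitters' processing notes; their versions are not given in the sources, and neither is the counting tool. For each library the authors deposited a table with an expected count (estimated count) per gene symbol, which need not be whole. Among values from 1 to 40, 38% could be divided by 4 without remainder, where an even spread gives 25%, and 4 units were taken as 1 fragment. Values were rounded to whole numbers. Of 23337 symbols, 14924 passed filterByExpr with a minimum count of 10 over the 4 groups, and 25 symbols had been turned into dates.

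Counts were scaled by TMM and tested with edgeR 4.0.16 (R 4.3.3) by the quasi-likelihood test, with cell type and set as terms for the effect over both cell types, and 1 coefficient per group for GMP, CMP and their difference. P-values were adjusted by Benjamini-Hochberg with a threshold of 0.05. Trappc1 was tested by an exact permutation within cell type. The fits were tested on simulated data. Alternatives were DESeq2 1.42.0, limma 3.58.1 voom, other filters and scaling, a GC and length correction, thinning, all 15 libraries, summed counts and leaving out each library; thinning, voom without the block, and the list of histone genes and 3 others were added after the data were seen. No pair of libraries was duplicated. Depth was 61.3 to 112.4 M units per wild-type library.

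The library numbers were taken to pair GMP with CMP, since deviations from the cell type mean correlated at 0.277, 0.366, 0.283 and 0.467 for numbers 1 to 4 over 9939 genes, although these values include the difference between the sets. In set 1-2 the unmatched pairs gave 0.207 (CMP 1, GMP 2) and 0.31 (CMP 2, GMP 1). In set 3-4 they gave 0.156 (CMP 3, GMP 4) and 0.188 (CMP 4, GMP 3). The 0.31 lies above the matched value of number 1. As deviations from the set mean, the matched correlations were 0.138 in set 1-2 and 0.438 in set 3-4. The edgeR fits held no term for the number and treat GMP and CMP libraries of a number as independent. Only the replicate block and the summed counts took the number into account. The numbers carry no stated batch.

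Named genes were Trappc1, the sort gate and Fc receptor genes, the 12 genes higher and 12 lower that changed most, given a call, a mean of 5 CPM or more in the higher set and no overlap, up to 4 members of each list by smallest p, and the 5 smallest p per direction for the difference. A microRNA host symbol among the 12 and some other genes are not reported here. The members and lists were chosen with earlier results of these data known. Of 738 list symbols 735 were found. Promoters came from RefSeq (GRCm38.p6) and positions from GENCODE (GRCm38).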

Additional observations from a re-analysis of the deposited data

Results flagged for a closer look

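By the test of the difference itself (edgeR's quasi-likelihood test, adjusted over all genes), the set effect differed between GMP and CMP for 791 genes. The 10 described here had the smallest p, 5 in each direction, with symbols of unnamed clones left out. They were chosen by small p, so their calls in 8 of 8 fits with a library left out are no separate support. The difference was higher in GMP for Gstp2 (10.9165 on the log2 scale), Rasa4 (1.1695), Pcdhgb7 (4.4134), Slc16a11 (2.848) and Fgd2 (1.0858), and lower in GMP for Vcam1 (-4.3079), Chi3l3 (-4.6646), Fcnb (-5.7769), Prg2 (-5.3521) and Epx (-4.8977). Gstp2, a glutathione transferase with a near-identical neighbour, had 2.68 and 2.63 CPM in GMP 1-2, against 3.27 and 4.26 CPM in GMP 3-4. It was listed at 0 in both CMP 1-2 libraries, against 3.58 and 4.40 CPM in CMP 3-4, which is at least 27.5-fold lower than their mean when set at the floor of 3 fragments per library, so its fitted difference is no bound. Pcdhgb7, a clustered protocadherin that shares exons with its neighbours, had 3.27 and 3.02 CPM in GMP 1-2, against 0.195 and 0.154 CPM in GMP 3-4, and 2.39 and 2.37 CPM in CMP 1-2, against 3.28 and 2.46 CPM in CMP 3-4. Slc16a11, a monocarboxylate transporter family member, had 0.911 and 0.796 CPM in GMP 1-2, against 0.715 and 0.875 CPM in GMP 3-4, and 1.82 and 1.45 CPM in CMP 1-2, against 10.7 and 11.2 CPM in CMP 3-4. Rasa4, a Ras GTPase-activating protein, was higher in GMP 1-2, at 114.8 and 114.8 CPM against 83.1 and 83.3 CPM in GMP 3-4, and lower in CMP 1-2, at 114.7 and 107.4 CPM against 180.3 and 181.6 CPM in CMP 3-4. Fgd2, a Cdc42 exchange factor, had 44.6 and 42.3 CPM in GMP 1-2, against 35.3 and 31.7 CPM in GMP 3-4, and 66.1 and 59.0 CPM in CMP 1-2, against 104.0 and 100.7 CPM in CMP 3-4.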

How the results depend on the processing

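Other settings gave 4550 values of named genes and of counts of called list members. Of these, 3887 stayed the same: genes kept direction and side of the threshold, and list counts stayed within 1.5 times. For genes, 255 values lost and 61 gained the call and 18 turned round, while 329 list counts moved further. Counts of genes moved by more than 1.5 times in these cases, and the cause was not tested. DESeq2 called 1733 genes higher over both cell types, 800 higher and 1102 lower in GMP and 436 with a higher effect in GMP than in CMP. The fit of all 15 libraries called 1977 higher and 2099 lower over both. The GC and length correction called 682 higher in GMP. With the library number as a replicate block, limma voom (correlation 0.163) called 1857 higher over both and 353 with a higher effect in GMP. Without the block it called 2178 higher and 1983 lower over both. Against the edgeR fit, no other count of voom with the block moved by more than 1.5 times. With 1 library left out, counts over both ran from 380 to 882 higher and 535 to 979 lower, in GMP from 82 to 659 higher and 244 to 977 lower, in CMP from 865 to 2060 higher and 508 to 1542 lower, and for the difference from 83 to 251 higher and 362 to 759 lower. The step genes' medians over both (0.794 and -0.254) were 0.628 and -0.132 with 200 genes each way, and 0.446 and -0.142 when chosen in KO libraries 1-2. Effects over both that turned round were those of genes not called there: Cd34 (-0.003), Fcnb (-0.162), Prg2 (-1.686) and Epx (-1.765) with GMP and CMP counts summed; Uty (-0.005) with the GC and length correction; and Chi3l3 at 0.09 with DESeq2, 0.082 with all 15 libraries, 0.087 with the replicate block and 0.088 without it. With a library left out, Rasa4 ran from -0.272 to 0.041, Chi3l3 from -0.999 to 0.901, Prg2 from -0.538 to 2.003 and Epx from -0.635 to 1.536. With 2 libraries a group the spread is known only roughly, and genes under the floor of 3 fragments per library are not detectable at this depth.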

Other observations

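Genes of the circadian clock, a list added after values were seen, had 6 of 16 higher and 1 lower over both cell types (edgeR). Of all genes 7.3% were higher and 8.5% lower. The higher count of the list was 3 without CMP 1 or CMP 4 and 2 without CMP 2, GMP 2 or GMP 4. Per1, a repressor of the clock loop, had 59.6 and 67.1 CPM in GMP 1-2, against 32.97 and 33.3 CPM in GMP 3-4, and 127.6 and 110.2 CPM in CMP 1-2, against 93.96 and 69.7 CPM in CMP 3-4. Its log2 change was 0.74 ± 0.12 (adjusted p = 0.00611), and that of Per2, its partner, 0.68 ± 0.10 (adjusted p = 0.00317). Neither gene's sets overlapped. The labels give no time of day. Nr1d1 and Dbp, clock outputs named after their values were seen, were not called (0.04 and 0.08).

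Over both cell types 7.3% of all genes were higher and 8.5% lower. Of 20 cytokine receptor genes 1 was higher and 4 were lower. Csf2rb, the shared receptor subunit for IL-3, IL-5 and GM-CSF, had 141.1 and 142.0 CPM in GMP 1-2, against 207.3 and 201.2 CPM in GMP 3-4, and 111.9 and 107.3 CPM in CMP 1-2, against 143.0 and 133.5 CPM in CMP 3-4 (log2 change -0.43 ± 0.06, adjusted p = 0.00429). It shares sequence with Csf2rb2 (-0.78), so their reads may be split. Of 29 G2 and mitosis genes 8 were lower and 0 higher by edgeR (1 at an unadjusted p under 0.05, 0 by DESeq2), and 3 to 6 were lower with a library left out (3 without CMP 2, GMP 1 or GMP 4, 4 without CMP 1 or CMP 3, 5 without CMP 4 or GMP 3). Aurka, a spindle kinase, changed by -0.42. Of 80 nuclear genes of oxidative phosphorylation, added after values were seen, 21 were lower and 0 higher by edgeR (1 at an unadjusted p under 0.05, 0 by DESeq2), but 8, 10, 9 and 9 were lower without CMP 2, CMP 4, GMP 2 and GMP 4, and with the GC and length correction 11 were lower and 3 higher. Ribosomal protein genes, added in the same way, had 14 of 82 lower and 1 higher, and 3 lower and 11 higher with that correction, so no direction is given for them.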
